A study of Mus musculus with 30 samples.

Results

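Hedgehog signalling in the intestine was described here by 6 genes: the receptor Ptch1, the membrane protein Hhip, the signal transducer Smo and the transcription factors Gli1, Gli2 and Gli3. They were taken by name from the deposited tables, 6 of the 20093 genes that at least 1 table held, and all 14 tables held each of them. RNA was measured by 3' sequencing in cells of C57BL/6 mice that carried ColVI-cre, a Cre recombinase under a collagen VI promoter, and Rosa mTmG, a reporter that switches a cell and its descendants to green fluorescence (GFP) once Cre has acted. Colon cells came from mice given dextran sulfate sodium (DSS), which injures the epithelium and causes colitis, and from normal mice, and in each case were sorted as GFP-positive, sorted as GFP-negative (named Tomato in the labels) or left unsorted. Cells of the normal small intestine were sorted as GFP-high, GFP-low and GFP-negative or left unsorted. Every animal of every group therefore carried both transgenes, and the sort follows Cre activity, not the level of the collagen gene. By their labels the 10 groups have 3 replicates each, and no age is stated. Unsorted small intestine replicate 1 was not analysed here, which leaves 29 of 30 libraries. Nothing says that replicates came from separate mice, so p-values measure the spread between these samples only.

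In the gut, Hedgehog ligands are made by the epithelium and act on the mesenchyme beneath it. Ptch1 holds Smo inactive until a ligand binds Ptch1, and Smo then acts at the primary cilium on the Gli factors. Gli1 is an activator and a target of the pathway, Gli2 is mainly an activator, and Gli3 can be cut to a repressor. Ptch1 and Hhip both bind the ligand at the cell surface, and both are themselves targets, so that they also limit the signal.

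The files' coordinates are on mm10. Ptch1 (ENSMUSG00000021466) lies on chromosome 13 from 63508328 to 63573598 and Hhip (ENSMUSG00000064325) on chromosome 8 from 79965851 to 80058006, both on the minus strand. Gli1 (ENSMUSG00000025407) lies on chromosome 10 from 127329889 to 127341589, minus strand, and Gli2 (ENSMUSG00000048402) on chromosome 1 from 118834132 to 119053619, minus strand. Gli3 (ENSMUSG00000021318) lies on chromosome 13 from 15463235 to 15730026 and Smo (ENSMUSG00000001761) on chromosome 6 from 29735503 to 29761365, both on the plus strand. In GENCODE M21 (GRCm38), the last 1000 bases of Gli1 overlap Arhgap9 on the opposite strand. Whether reads were counted by strand is not given in the sources used here, so Gli1 and Arhgap9 reads may be mixed. No other member has an annotated gene over its last 1000 bases.

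Ptch1 and Hhip were the only members called between sorted colon populations or with DSS, and their promoter windows are shown for that reason. Each is the 300 bases of the RefSeq table (GRCm38.p6) that run 250 bases before to 50 bases after the listed start, 5' to 3' on the gene's strand, with capitals for CCACCC on either strand (GGGTGG on the other), the core of the Gli binding motif. The windows are chr13:63565686-63565985 (minus strand) and chr8:80057959-80058258 (minus strand), and the Ptch1 start lies inside the gene span given above.
Ptch1: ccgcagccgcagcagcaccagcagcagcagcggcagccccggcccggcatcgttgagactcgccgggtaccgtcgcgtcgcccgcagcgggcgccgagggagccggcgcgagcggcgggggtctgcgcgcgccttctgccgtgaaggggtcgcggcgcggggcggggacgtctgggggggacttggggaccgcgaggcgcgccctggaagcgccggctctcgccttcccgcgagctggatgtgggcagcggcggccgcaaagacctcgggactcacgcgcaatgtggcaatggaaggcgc
Hhip: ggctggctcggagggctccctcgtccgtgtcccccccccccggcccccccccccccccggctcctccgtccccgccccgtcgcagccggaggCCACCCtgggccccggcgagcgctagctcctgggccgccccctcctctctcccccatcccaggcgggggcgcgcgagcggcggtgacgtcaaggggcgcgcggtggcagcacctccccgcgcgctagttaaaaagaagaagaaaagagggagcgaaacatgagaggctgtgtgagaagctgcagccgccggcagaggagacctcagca
The 9-letter consensus GACCACCCA (TGGGTGGTC on the other strand), which holds the core within it, was in neither window and in 0.253% of the 32851 windows of the table. The core was in 1 place in the Hhip window, in none in the Ptch1 window and in 31.5% of all windows. The windows of Gli2, Gli3 and Smo held 2, 1 and 1 copies of the core and none of the consensus. No window for Gli1 was used here.

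Values below are normalised counts, the authors' scaled read counts rounded to whole numbers. DSS colon, normal colon and small intestine were scaled separately, and a further scale was common to the 12 sorted colon libraries. Fold changes and tests are from limma on log2(value + 1), which understates the change of low genes, with Benjamini-Hochberg adjustment over all genes tested and a threshold of 0.05. Depth, read from the spacing of the values in 25 libraries, was 1228000 to 4416000 reads per library. Markers were checked against the labels. Pdgfra, a fibroblast receptor, stood at 461 to 3556 in the 21 sorted libraries and at 215 to 707 in the 8 unsorted ones. Epcam, which marks epithelium, stood at 1 to 98 in sorted and 212 to 2262 in unsorted libraries. Ptprc, which marks leukocytes, stood at 0 to 17 and 107 to 537. Of the unsorted normal colon libraries, replicate 1 stood apart, with 2159 normalised counts summed over 12 epithelial genes against 18000 and 17357 in replicates 2 and 3, and with 63259 against 25005 and 28626 over 13 immune genes. Some sorted libraries were uneven as well. Normal colon GFP-negative replicate 3 had 4945 over the immune genes, against 1092 and 1294 in replicates 1 and 2. Small intestine GFP-negative replicates 1, 2 and 3 had 1920, 563 and 289 over 12 endothelial genes. They had 304, 104 and 2290 over 4 genes of interstitial cells of Cajal. In bulk samples, fewer cells of a type and less RNA per cell cannot be told apart.

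**Figure D1:**
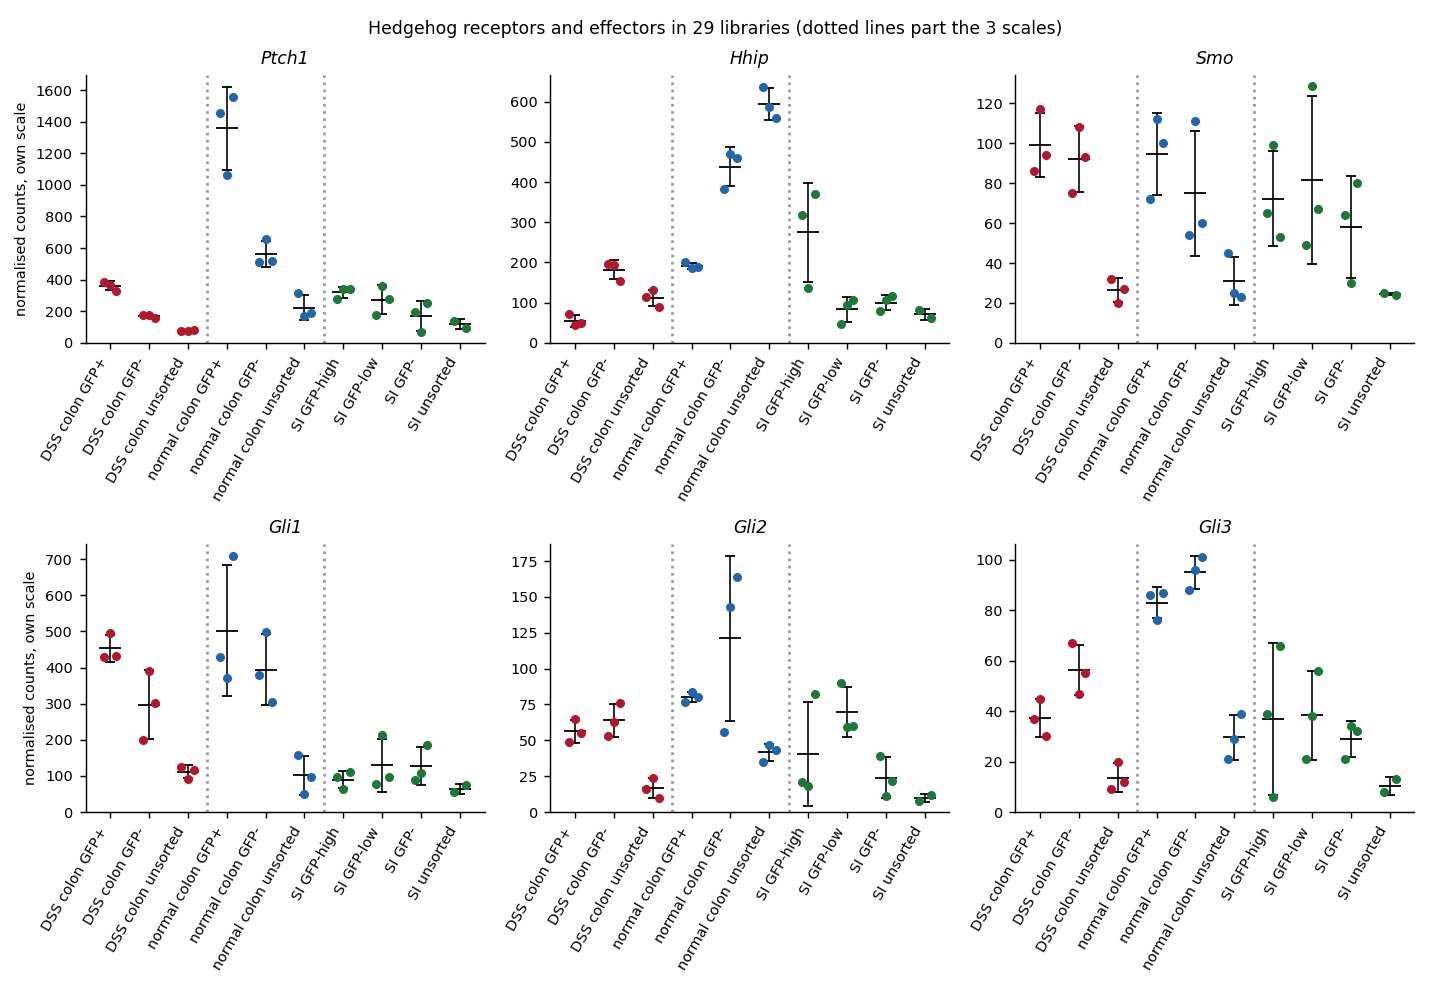
Normalised counts of the 6 genes in each of 29 libraries (points), with the mean and SD of each group (bars, n = 3, and 2 for unsorted small intestine). Each panel has its own linear axis from 0, and dotted lines part the DSS colon, the normal colon and the small intestine, whose scales differ. Ptch1 was highest in GFP-positive and Hhip in unsorted cells of the normal colon.

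In the colon, Ptch1 was higher and Hhip lower in GFP-positive than in GFP-negative cells, in normal and in DSS-treated mice alike. In the normal colon, Ptch1 stood at 1455, 1062 and 1559 normalised counts in GFP-positive cells, against 513, 658 and 520 in GFP-negative cells. Hhip stood at 201, 187 and 189 in GFP-positive cells, against 382, 471 and 461 in GFP-negative cells. The groups did not overlap for either gene. The log2 fold change of Ptch1 was 1.26 ± 0.26 (SE, limma adjusted p = 0.016) and that of Hhip was -1.18 ± 0.23 (SE, limma adjusted p = 0.011). These were the 2 members called of 6, in a comparison that called 5.98% of 13346 genes tested (2.97% higher, 3.01% lower). Both calls were lost when certain single libraries were left out, and neither gene had an FDR under 0.05 in the authors' deposited DESeq test. Ptch1 remained past the threshold in 3 of 6 fits with 1 library left out (highest limma adjusted p = 0.081). Hhip did so in 4 of 6 (highest limma adjusted p = 0.066), and neither did without GFP-positive replicate 3. In these fits the log2 fold change ran from 1.15 to 1.43 for Ptch1 and from -1.27 to -1.12 for Hhip. They called 454 to 888 of all genes.

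In the DSS colon the same 2 members differed in the same directions. Ptch1 stood at 388, 369 and 329 normalised counts in GFP-positive cells, against 175, 173 and 156 in GFP-negative cells. Hhip stood at 72, 44 and 50 in GFP-positive cells, against 197, 194 and 154 in GFP-negative cells. The groups did not overlap for either gene. Replicates lay close together for Ptch1, while those of Hhip in GFP-positive cells were spread more (mean 55.3, SD 14.7). The log2 fold changes were 1.10 ± 0.17 for Ptch1 (limma adjusted p = 0.00035) and -1.72 ± 0.22 for Hhip (SE, limma adjusted p = 7.2e-05). Here 17.1% of 12570 genes (8.22% higher, 8.90% lower) were called, and both calls remained in 6 of 6 fits with 1 library left out. The authors' deposited DESeq test called neither, with an FDR of 0.77 for Ptch1 and 0.17 for Hhip.

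Gli1, the activator and target, had 430, 496 and 433 normalised counts in GFP-positive DSS colon cells, against 199, 391 and 301 in GFP-negative cells. Each GFP-positive library was above each GFP-negative one, by a log2 fold change of 0.66 (limma adjusted p = 0.056). This passed the threshold with libraries scaled to equal totals (adjusted p = 0.020) and without DSS GFP-negative replicate 2 (adjusted p = 0.018). In the normal colon Gli1 had 428, 370 and 709 in GFP-positive cells, against 378, 499 and 305 in GFP-negative cells, and the groups overlapped (0.32, limma adjusted p = 0.69). Gli3 was below in each GFP-positive library in both conditions without passing the threshold: 37, 45 and 30 against 67, 47 and 55 in GFP-negative cells of the DSS colon (-0.58, limma adjusted p = 0.14). In the normal colon Gli3 stood at 86, 76 and 87 in GFP-positive cells, against 88, 96 and 101 in GFP-negative cells (-0.19, limma adjusted p = 0.77). Smo and Gli2 overlapped between the populations in both conditions, with log2 fold changes of 0.38 and -0.44 in the normal and 0.11 and -0.18 in the DSS colon.

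Markers of other cell types also differed between the sorted populations. Summed over 12 contractile genes of smooth muscle, normalised counts were 11038 to 15495 in GFP-positive cells of the normal colon, against 3080 to 4438 in GFP-negative cells. Of the 12, 5 were called higher and none lower, with a median log2 fold change of 0.50. With DSS the sums were 9462 to 11565 in GFP-positive cells, against 4041 to 4472 in GFP-negative cells, with 5 higher and 1 lower and a median log2 fold change of 0.07. Myh11, which defines mature muscle, stood at 173 to 446 in GFP-positive cells of the normal colon, against 54 to 219 in GFP-negative cells, and at 90 to 94 with DSS, against 90 to 100, so its groups overlapped in both. Those of Des, also of the 12, overlapped in both too. Acta2, another of the 12, did not overlap in either. It stood at 2607 to 4053 against 455 to 1005 in the normal colon, and at 1165 to 1696 against 407 to 714 with DSS. Of 8 pericyte genes, 7 were tested, of which 1 was called higher in the normal and 7 in the DSS colon, and none lower. Of 9 genes that define mesenchyme, 1 was higher and 3 were lower in GFP-positive cells of the normal colon, and 1 higher and 6 lower in the DSS colon. Immune genes were called lower in 3 of 7 tested in the normal and 2 of 9 in the DSS colon, endothelial genes in 2 of 10 and 3 of 6, epithelial genes in 0 of 8 and 4 of 8, and glial and neuronal genes in 0 of 3 and 2 of 4, with none higher. Of 4 genes of interstitial cells of Cajal, 2 were higher and 1 lower in the normal colon, and 1 higher and 1 lower in the DSS colon. The 1 mesothelial gene tested was lower in the DSS colon. The part of these markers in the differences of Ptch1 and Hhip was not tested.

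**Figure D2:**
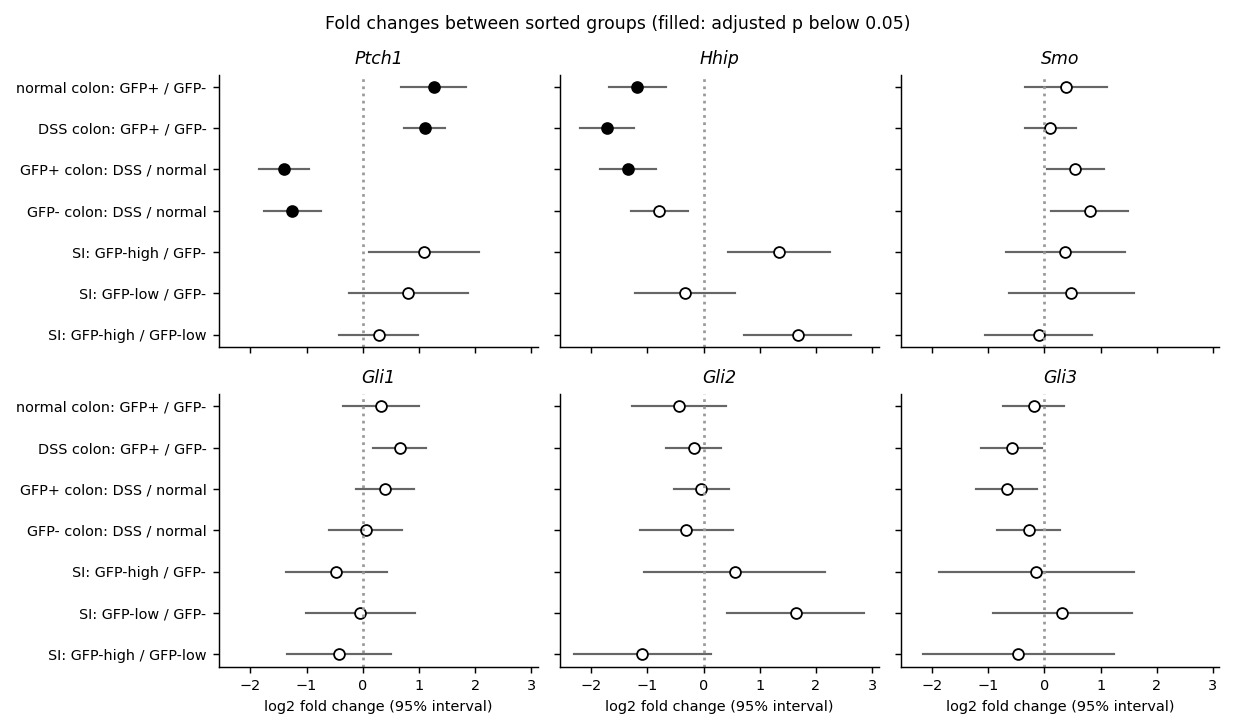
Log2 fold changes of the 6 genes in 7 comparisons (rows), the first-named group over the second, with 95% intervals from limma. Filled points passed an adjusted p of 0.05: Ptch1 in 4 comparisons and Hhip in 3, all in the colon. Hhip lay below 0 in the GFP-positive colon comparisons and above 0 in small intestine GFP-high cells.

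With DSS, Ptch1 was lower in both sorted populations and Hhip in GFP-positive cells, while Gli1 did not pass the threshold in either. In the labels, all DSS colon libraries are numbered in a run apart from that of the normal colon libraries. In each comparison of DSS with normal colon cells, DSS and any other difference between these sets of libraries therefore cannot be told apart. On the common scale, Ptch1 stood at 453, 433 and 386 normalised counts in GFP-positive cells of DSS-treated mice, against 1217, 890 and 1313 in those of normal mice. In GFP-negative cells it stood at 206, 204 and 183 with DSS, against 431, 555 and 438 in normal mice. No DSS library reached the lowest normal library of its population. Ptch1 fell by 1.41 ± 0.21 on the log2 scale in GFP-positive cells (SE, limma adjusted p = 0.00064). In GFP-negative cells it fell by 1.25 ± 0.23 (SE, limma adjusted p = 0.0061).

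Hhip stood at 84, 51 and 58 in GFP-positive cells with DSS, against 168, 157 and 159 in normal mice, and fell by 1.34 ± 0.23 on the log2 scale (SE, limma adjusted p = 0.0020). In GFP-negative cells Hhip stood at 231, 228 and 181 with DSS, against 321, 398 and 389 in normal mice. These groups did not overlap either, but the log2 fold change of -0.79 missed the threshold (limma adjusted p = 0.051). It passed with libraries scaled to equal totals (-0.91, adjusted p = 0.029) and without normal GFP-negative replicate 1 (-0.89, adjusted p = 0.019). In all, 2 of 6 members were called in GFP-positive cells, where 19.7% of 12976 genes (10.2% higher, 9.46% lower) were called. In GFP-negative cells 1 of 6 was called, where 10.3% of 13025 genes (6.03% higher, 4.27% lower) were called. The Ptch1 calls in both populations and the Hhip call in GFP-positive cells remained in 6 of 6 fits with 1 library left out. None of these had an FDR under 0.05 in the authors' deposited DESeq test.

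Gli1 had 503, 583 and 508 normalised counts in GFP-positive cells with DSS, against 358, 310 and 597 in normal mice, and the groups overlapped (0.39, limma adjusted p = 0.27). It had 234, 461 and 353 in GFP-negative cells with DSS, against 318, 421 and 257 in normal mice (0.05, limma adjusted p = 0.93). Without normal GFP-positive replicate 3, its highest normal library, Gli1 passed the threshold as higher in GFP-positive cells with DSS (0.67, adjusted p = 0.037). Smo stood at 101, 137 and 111 in GFP-positive cells with DSS, against 61, 94 and 84 in normal mice, above in each library (0.55, limma adjusted p = 0.12). In GFP-negative cells Smo stood at 88, 127 and 109 with DSS, against 46, 94 and 51 in normal mice (0.81, limma adjusted p = 0.12). Gli3 stood at 43, 53 and 35 in GFP-positive cells with DSS, against 72, 63 and 73 in normal mice. Its log2 fold change of -0.67 had an adjusted p of 0.077 with limma and of 0.045 with libraries scaled to equal totals. In GFP-negative cells Gli3 had a log2 fold change of -0.28 (limma adjusted p = 0.52). Gli2 had -0.04 in GFP-positive and -0.31 in GFP-negative cells, and its groups overlapped in both.

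No member's response to DSS was shown to differ between the populations. The difference of the DSS responses, GFP-positive minus GFP-negative, was tested in 1 fit of the 12 sorted colon libraries and called 0 of 6 members, with 0 at an unadjusted p under 0.05. It called 0.0519% of 13488 genes, with 1081 at an unadjusted p under 0.05. Hhip had the largest estimate of the 6 in size, -0.55 ± 0.31 (SE, limma adjusted p = 0.70), and Ptch1 had -0.16 ± 0.30 (SE, limma adjusted p = 0.93). The 95% interval was -1.22 to 0.11 for Hhip and -0.79 to 0.47 for Ptch1.

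Other marker genes differed with DSS as well. Of 9 genes that define mesenchyme, such as Vim and the collagen gene Col1a1, 6 were called lower and none higher in GFP-positive cells with DSS, and 1 lower in GFP-negative cells. Of the 7 pericyte genes tested, 4 were called higher in GFP-positive cells, and 3 higher and 1 lower in GFP-negative cells. Genes of interstitial cells of Cajal were lower in 3 of 3 tested in GFP-positive and 1 of 4 in GFP-negative cells, none higher. Glial and neuronal genes were higher in 1 of 3 and 2 of 4, and immune genes in 1 of 9 and 1 of 9, none lower. Of endothelial genes 1 of 9 was lower in GFP-positive cells and 0 of 9 in GFP-negative cells, and of epithelial genes 1 of 6 and 0 of 8, none higher. Among the 12 contractile genes, 1 was higher and 1 lower in each population, and the 1 mesothelial gene tested was higher in GFP-negative cells. Pdgfra had log2 fold changes of 0.39 (adjusted p = 0.17) and 0.34 (adjusted p = 0.40) in GFP-positive and GFP-negative cells. The part of these shifts in the levels of Ptch1 and Hhip was not tested.

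**Figure D3:**
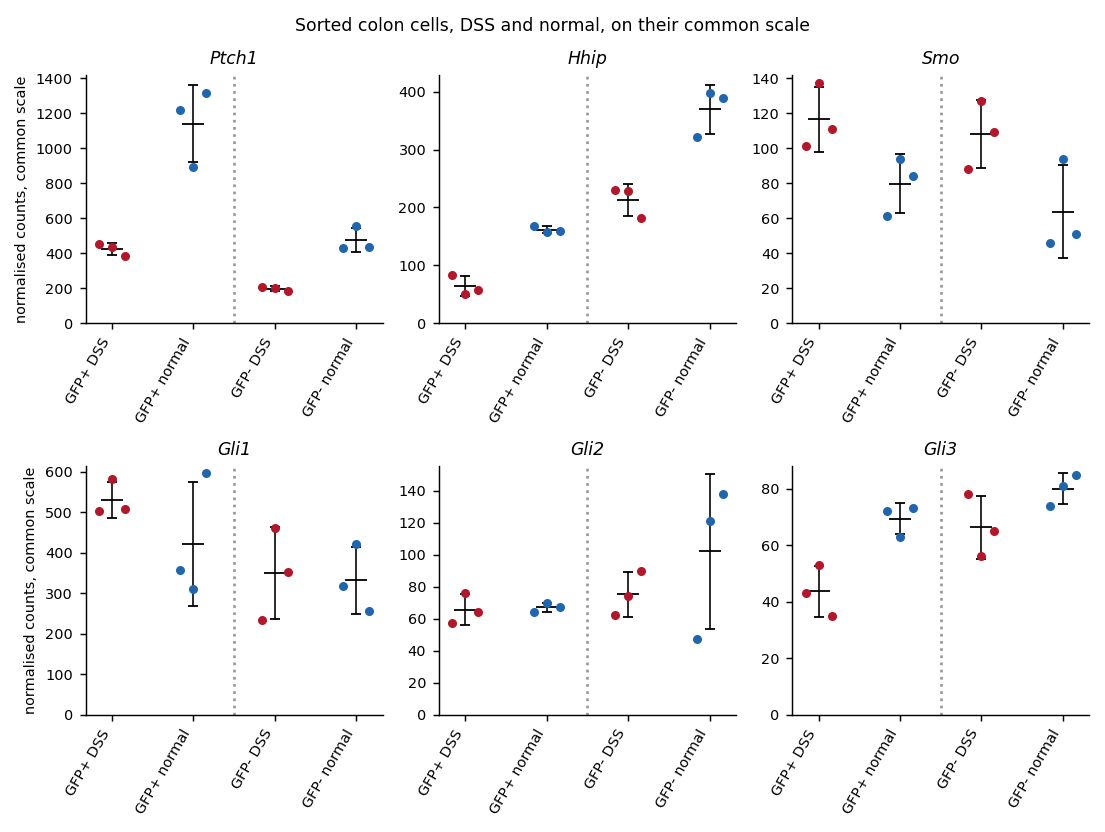
Normalised counts of the 6 genes in sorted colon cells on the scale common to 12 libraries (points), DSS in red beside normal in blue, with mean and SD (bars, n = 3 each). Ptch1 was lower in each DSS library than in each normal library of its population (386 to 453 against 890 to 1313 in GFP-positive cells), while the Gli1 groups overlapped.

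A ratio of 2 genes within a library does not depend on the scale, so that it can be set side by side over all 10 groups, unsorted cells included. It was chosen after the values were seen and is given as a description with no test. The labels number the normal colon libraries in a run apart from those of the DSS colon and the small intestine. Other differences between these sets therefore cannot be told apart from DSS or tissue. Ptch1 over Gli1 was 0.902, 0.744 and 0.760 in GFP-positive DSS colon cells, against 3.40, 2.87 and 2.20 in those of the normal colon. In GFP-negative cells it was 0.879, 0.442 and 0.518 with DSS, against 1.36, 1.32 and 1.70 in normal mice. In unsorted cells it was 0.579, 0.824 and 0.681 with DSS, against 2.00, 3.41 and 1.91 in normal mice. The highest DSS library was below 1 and the lowest normal colon library above it in each preparation. In the small intestine the ratio was 2.91 to 5.37 in GFP-high, 1.69 to 2.82 in GFP-low, 0.626 to 2.19 in GFP-negative and 1.28 to 2.53 in unsorted cells.

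Hhip over Gli1 was 0.0887 to 0.167 in GFP-positive DSS colon cells, against 0.267 to 0.505 in those of the normal colon. In unsorted cells it was 0.776 to 1.45 with DSS, against 4.04 to 12 in normal mice. In GFP-negative cells the ranges overlapped, with 0.496 to 0.990 under DSS and 0.944 to 1.51 in normal mice. Such ratios show that the genes changed unequally, and not which of them changed.

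**Figure D4:**
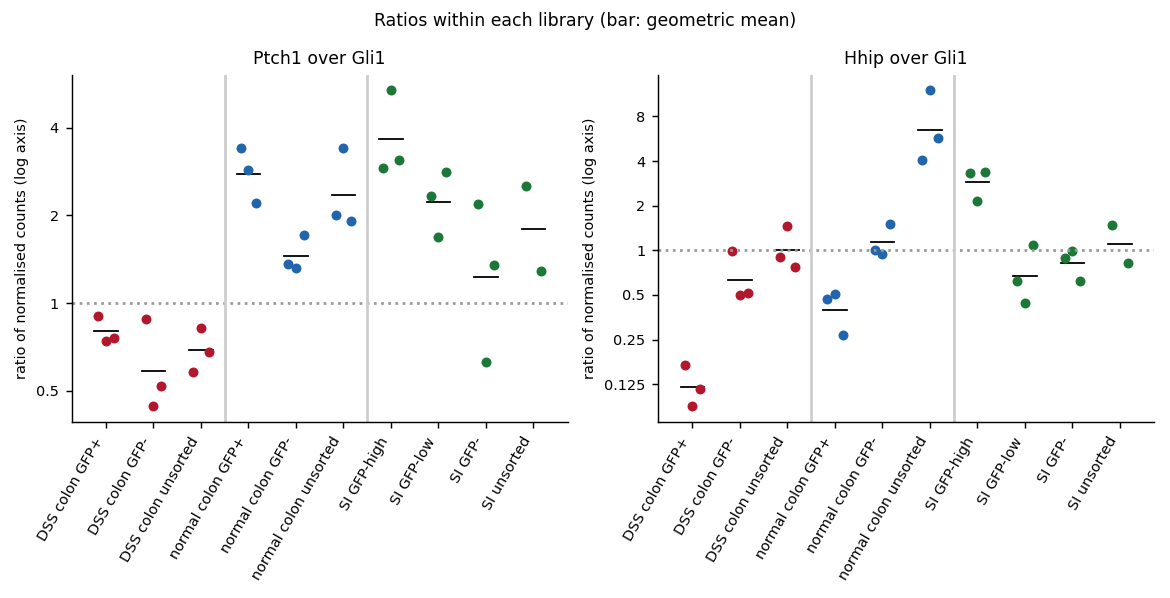
Ratio of the normalised counts of Ptch1 to Gli1 (left) and of Hhip to Gli1 (right) in each library, on log axes, with the geometric mean of each group as a bar. For Ptch1 over Gli1, the 9 DSS colon libraries lie between 0.442 and 0.902 and the 9 normal colon libraries between 1.32 and 3.41.

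Among the other genes of the pathway, the co-receptors called between GFP-positive and GFP-negative colon cells were lower in GFP-positive cells, where Ptch1 was higher. A list of 61 genes was used, of which 52 were tested in the normal colon. There, 2 were called higher and 6 lower in GFP-positive than in GFP-negative cells, where 5.98% of all genes tested were called. Their median log2 fold change was -0.08, against 0.0035 over all genes tested. In the DSS colon 7 were higher and 11 lower of 51 tested, where 17.1% of all genes tested were called. The median was -0.07 there, against 0.01 over all genes tested. Of 4 tested members of the co-receptor group, 2 were lower in the normal and 3 in the DSS colon, and none higher.

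Gas1, a co-receptor that helps Ptch1 bind ligand, stood at 20, 25 and 27 normalised counts in GFP-positive cells of the normal colon, against 111, 170 and 148 in GFP-negative cells (-2.51, limma adjusted p = 0.00067). With DSS it stood at 11, 9 and 4 in GFP-positive cells, against 71, 75 and 64 in GFP-negative cells (-3.07, limma adjusted p = 2.0e-05). These groups were far apart in both conditions. Cdon, a co-receptor of the same kind, stood at 8, 7 and 21 in GFP-positive cells of the normal colon, against 53, 35 and 36 in GFP-negative cells (-1.83, limma adjusted p = 0.040). With DSS, Cdon stood at 13, 1 and 6 in GFP-positive cells, against 48, 47 and 61 in GFP-negative cells (-3.18, limma adjusted p = 0.0016). The normal-colon call of Cdon remained in 1 of 6 fits with 1 library left out, and the DSS call in 6 of 6.

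Boc, the third co-receptor of this kind, stood at 18, 20 and 26 in GFP-positive DSS colon cells, against 86, 52 and 46 in GFP-negative cells (-1.44, limma adjusted p = 0.0031). In the normal colon its log2 fold change was -0.92 (limma adjusted p = 0.13). Gpc3, a glypican that binds Hedgehog ligand and competes with Ptch1 for it, had log2 fold changes of -2.55 in the normal and -2.84 in the DSS colon (limma adjusted p = 0.0013 and 1.3e-07). Also called lower in the DSS colon were Gpc4, another glypican (-1.02), the protease Adam17 (-0.57) and Prkacb, a catalytic subunit of protein kinase A (-0.68). Tulp3, a cilium trafficking protein (0.81), and Prkar1a, a regulatory subunit of protein kinase A (0.69), were higher there. Of these, Gpc4 remained past the threshold in 2, Adam17 in 1 and Prkacb in 0 of 6 fits with 1 library left out.

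Listed targets of the gut mesenchyme went both ways. Of 14 tested, 2 were higher and 3 lower in GFP-positive cells of the normal colon, and 5 higher and 4 lower in the DSS colon. Foxl1, a forkhead factor of subepithelial cells, stood at 376, 393 and 535 in GFP-positive cells of the normal colon, against 73, 51 and 53 in GFP-negative cells (2.86, limma adjusted p = 0.00023), and had 3.58 in the DSS colon. Ccnd1, a G1 cyclin, had 2.34 in the normal and 2.10 in the DSS colon. In the DSS colon Foxf2 (1.46), another forkhead factor, Nkx2-3 (1.42), a homeobox factor of the gut mesenchyme, and Mycn (1.37), a growth regulator, were higher too. Osr1, a zinc-finger factor of fibroblast progenitors, was lower in both (-2.11 and -2.64), as was Hsd11b1, an enzyme that activates glucocorticoids (-1.75 and -1.08). Osr2 was lower in the normal colon (-1.58). Ccnd2 (-0.63), a second G1 cyclin, and Myocd (-1.98), a coactivator of smooth muscle genes, were lower in the DSS colon. With 1 library left out, Mycn remained past the threshold in 1 and Ccnd2 in 2 of 6 fits. The values of Foxf1, a direct target in gut development, were 0.98 in the normal and 0.48 in the DSS colon and did not pass (limma adjusted p = 0.17 and 0.092).

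Bmp4, a secreted growth factor and Hedgehog target in the gut, stood at 648, 597 and 824 in GFP-positive cells with DSS, against 2219, 2138 and 1723 in normal mice, and fell by 1.56 on the log2 scale (limma adjusted p = 0.00032). In GFP-negative cells Bmp4 stood at 1560, 572 and 526 with DSS, against 2514, 1458 and 1235 in normal mice, and these groups overlapped (-1.09, limma adjusted p = 0.11).

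Of the listed genes, 4 rose and 10 fell among 51 tested in GFP-positive cells with DSS, where 19.7% of all genes tested were called. Their median log2 fold change was -0.24, against -0.0085 over all genes tested. In GFP-negative cells 2 rose and 2 fell among 52, where 10.3% of all genes tested were called, with a median of -0.21 against -0.016. Hsd11b1 rose in both, to 460, 444 and 472 in GFP-positive cells with DSS against 148, 139 and 122 in normal mice (1.75, limma adjusted p = 6.7e-05), and by 1.08 in GFP-negative cells (limma adjusted p = 0.013). Adam17, a protease that sheds surface proteins, rose in both (0.83 and 1.26). Evc, a cilium protein that relays the Smo signal (-1.48 and -1.36), and the glypican Gpc6 (-0.92 and -1.18) fell in both. In GFP-positive cells, falls were also called for Kif3a, a motor subunit needed to build cilia (-1.23), Prkacb (-1.03), Osr1 (-1.25), Ccnd1 (-0.94), Mycn (-1.16), Myocd (-1.69) and Gpc3 (-0.97). Tulp3 (1.01) and Ulk3, a kinase that acts on Gli factors (0.95), rose there. Gpc3 and Myocd each remained past the threshold in 1 of 6 fits with 1 library left out, and Ulk3 in 2. Without DSS GFP-positive replicate 2 the count was 2 higher and 4 lower, and without replicate 3 it was 3 higher and 5 lower. In GFP-negative cells no listed gene was called without DSS GFP-negative replicate 2, against 9 without normal GFP-negative replicate 1. The count was 7 without normal GFP-negative replicate 3 and 2 without DSS GFP-negative replicate 3. Of all genes, such fits called 1253 to 2611 in GFP-positive and 360 to 1882 in GFP-negative cells.

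**Figure D5:**
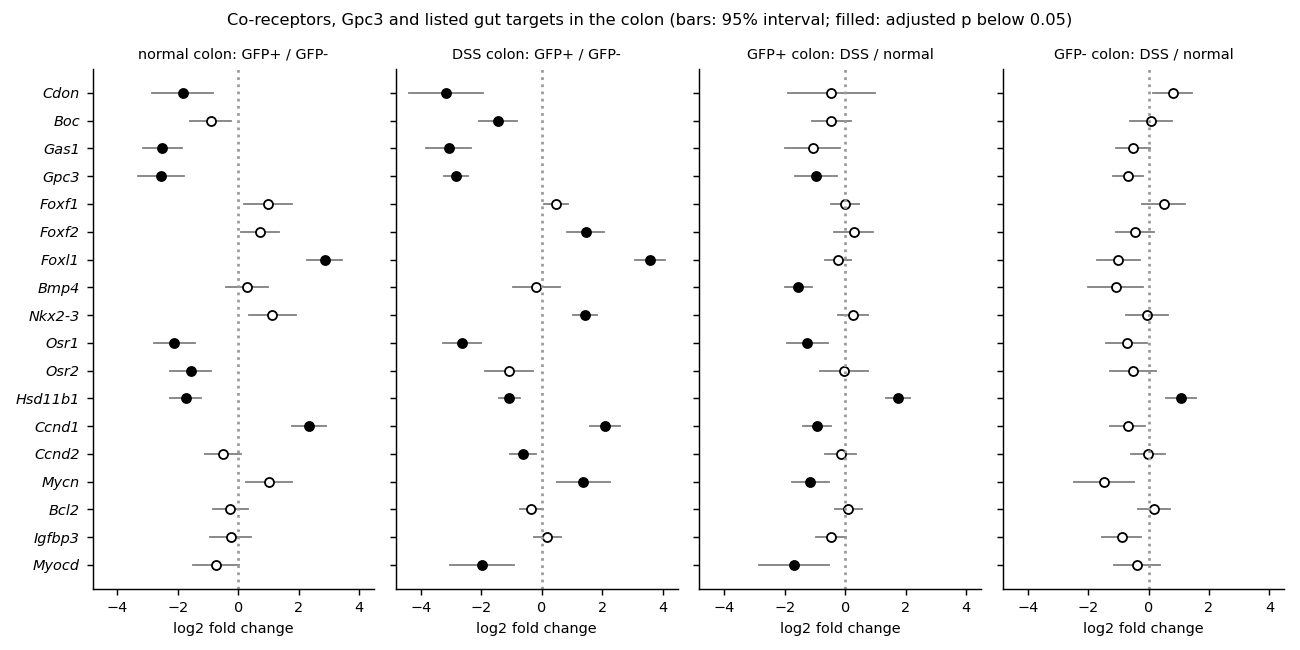
Log2 fold changes of 3 co-receptors, the glypican Gpc3 and 14 listed gut targets in 4 colon comparisons, the first-named group over the second, with 95% intervals from limma and filled points for an adjusted p below 0.05. Cdon, Gas1 and Gpc3 lie below 0 in GFP-positive against GFP-negative cells. Under DSS, Hsd11b1 rose in both populations.

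In the small intestine no member was called between sorted groups. In GFP-high against GFP-negative cells 0 of 6 were called by limma, which called 0.894% of 12412 genes. There, 2 members had an unadjusted p under 0.05, as did 1311 of the 12412 genes. In GFP-low against GFP-negative cells 0 of 6 were called where 0.675% of 12445 genes were. An unadjusted p under 0.05 was found for 1 member and for 2100 of the 12445 genes. In GFP-high against GFP-low cells 0 of 6 were called where 0.384% of 12226 genes were. Here 1 member and 942 of the 12226 genes had an unadjusted p under 0.05. The authors' deposited tables, from DESeq, also had 0 of 6 under an FDR of 0.05 in each, where 71, 47 and 20 of all genes were. Some of these libraries were shallow: GFP-negative libraries 1 and 2 had 1228000 and 1548000 estimated reads, GFP-high library 2 had 1376000 and GFP-low library 1 had 1792000.

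Hhip had 319, 136 and 370 normalised counts in GFP-high cells, against 79, 106 and 116 in GFP-negative cells. GFP-high libraries were above each GFP-negative one, with a log2 fold change of 1.34 ± 0.42 (SE, limma adjusted p = 0.23). In GFP-low cells Hhip had 48, 94 and 107, below each GFP-high library (GFP-high over GFP-low 1.67, limma adjusted p = 0.21). Ptch1 had 279, 338 and 340 in GFP-high cells and 179, 361 and 276 in GFP-low cells, against 195, 67 and 252 in GFP-negative cells. GFP-high libraries were above each GFP-negative one (1.09, limma adjusted p = 0.41) and GFP-low libraries overlapped them. Gli2 had 90, 59 and 60 in GFP-low cells, against 39, 11 and 22 in GFP-negative cells, above in each library (1.64, limma adjusted p = 0.18). Gli1 had 96, 63 and 110 in GFP-high and 77, 214 and 98 in GFP-low cells, against 89, 107 and 187 in GFP-negative cells, and all 3 groups overlapped. Smo and Gli3 also overlapped in each comparison. Gli3 ranged from 6 to 66 within GFP-high cells alone.

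Summed over the 12 contractile genes of smooth muscle, normalised counts were 8139 to 13000 in GFP-high and 2539 to 4229 in GFP-low cells, against 1588 to 3765 in GFP-negative cells. Of the 12 genes, 3 were called higher in GFP-high than in GFP-negative cells and 5 higher than in GFP-low cells, none lower. Of 7 pericyte genes tested, 2 were called higher in GFP-high than in GFP-negative cells and 2 higher than in GFP-low cells, none lower. Summed pericyte counts were 3262 to 5630 in GFP-high, 5460 to 8019 in GFP-low and 1681 to 2392 in GFP-negative cells. Of 9 genes that define mesenchyme, 1 was higher in GFP-high than in GFP-negative cells. No gene of the other marker lists was called in either comparison. The part of any of these cell types in the Hhip values was not tested. Of the other pathway genes, 1 was higher and 3 were lower in GFP-high than in GFP-negative cells, among 48 tested, where 0.894% of all genes were called. Boc stood at 17, 8 and 6 in GFP-high cells, against 129, 118 and 45 in GFP-negative cells (-3.10, limma adjusted p = 0.047). Gpc3 stood at 35, 34 and 62 in GFP-high cells, against 588, 547 and 372 in GFP-negative cells (-3.52, limma adjusted p = 0.0016), which was also the 1 gene called lower of 46 in GFP-low cells (-1.97, limma adjusted p = 0.041). Osr1 (-2.53) was also lower and Foxf2 (3.18) higher in GFP-high cells. Apart from Gpc3 in GFP-high cells, each of these calls remained in 1 of 6 fits with 1 library left out. In GFP-high against GFP-low cells 0 of 46 listed genes were called.

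In the colon, most members were higher in sorted than in unsorted cells, with Hhip apart. In the DSS colon, GFP-positive cells were higher in 5 of 6 members and lower in 1, where 37.1% of 13662 genes (15.8% higher, 21.3% lower) were called, and GFP-negative cells were higher in 6 of 6, where 33.0% were (13.7% higher, 19.3% lower). Gli1 had 430, 496 and 433 normalised counts in GFP-positive and 199, 391 and 301 in GFP-negative cells, against 126, 91 and 116 in unsorted cells (2.03 and 1.37, limma adjusted p = 1.3e-05 and 0.0022). Ptch1 had 73, 75 and 79 in unsorted cells, below every sorted library of the DSS colon (2.24 and 1.14). Log2 fold changes of Smo, Gli2 and Gli3 against unsorted cells ran from 1.44 to 2.02. Hhip had 113, 132 and 90 in unsorted cells of the DSS colon, above GFP-positive cells (-1.01, limma adjusted p = 0.0087) and below GFP-negative cells (0.71, limma adjusted p = 0.039). The last call remained in 1 of 6 fits with 1 library left out.

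In the normal colon, GFP-positive cells were higher in 4 of 6 members and lower in 1, where 21.8% of 14649 genes (7.72% higher, 14.1% lower) were called, and GFP-negative cells were higher in 4 of 6, where 18.8% of 14617 (5.81% higher, 13.0% lower) were. Gli1 had 428, 370 and 709 in GFP-positive and 378, 499 and 305 in GFP-negative cells, against 158, 49 and 98 in unsorted cells (2.39 and 2.07, limma adjusted p = 0.0032 and 0.0078). Ptch1 had 316, 167 and 187 in unsorted cells, below every sorted library (2.64 and 1.38, limma adjusted p = 0.00047 and 0.019). Unsorted replicate 1, the library with few epithelial counts, had the highest Ptch1, Gli1, Smo and Hhip of the unsorted libraries, and the lowest Gli2 and Gli3. Hhip was lower in GFP-positive than in unsorted cells, which had 638, 588 and 559 (-1.62, limma adjusted p = 0.0021). GFP-negative cells had less Hhip than each unsorted library without passing the threshold (-0.45, limma adjusted p = 0.35). With 1 library left out, 3 to 5 members were called in GFP-positive and 2 to 4 in GFP-negative cells. The lowest counts came without GFP-positive replicate 3, and without GFP-negative replicate 2 or unsorted replicates 2 or 3. Of all genes, 2020 to 4168 were called in GFP-positive and 1554 to 3367 in GFP-negative cells in these fits.

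In the small intestine, with 2 unsorted libraries, GFP-high cells were higher in 2 of 6 members, where 17.2% of 13369 genes (6.13% higher, 11.1% lower) were called. These were Ptch1, with 139 and 95 in unsorted cells (1.46, limma adjusted p = 0.017), and Hhip, with 81 and 61 (1.83, limma adjusted p = 0.028). GFP-low cells were higher in 3 of 6, where 22.8% of 13434 genes (9.13% higher, 13.7% lower) were called: Gli2, with 8 and 12 in unsorted cells (2.68, limma adjusted p = 0.0043), Ptch1 (1.18, limma adjusted p = 0.0495) and Smo (1.58, limma adjusted p = 0.047). GFP-negative cells had 0 of 6 called by limma and 0 at an unadjusted p under 0.05. There, 11.5% of 13374 genes were called and 3701 had an unadjusted p under 0.05. With 1 library left out, members called in GFP-high cells numbered 0 without either unsorted library or GFP-high replicate 3, and 1 without GFP-high replicate 1. In GFP-low cells they numbered 0 without unsorted replicate 2, and 1 without unsorted replicate 3 or GFP-low replicates 2 or 3. The count over all genes moved as well in fits with 1 library left out. It ran from 0 to 2524 in GFP-high and from 210 to 2983 in GFP-low cells.

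Unsorted cells held what sorting removes. Of 12 epithelial genes, 11 were called lower in each sorted population of the colon, with 11 or 12 tested. Ihh, the ligand of the colonic epithelium, had 4, 0 and 4 normalised counts in GFP-positive and 1, 2 and 4 in GFP-negative cells of the normal colon, against 11, 95 and 98 in unsorted cells (-4.05 and -3.96, limma adjusted p = 0.010 and 0.0085). The unsorted library with 11 was replicate 1. With DSS, Ihh had 3, 0 and 2 in GFP-positive and 2, 0 and 3 in GFP-negative cells, against 14, 39 and 54 in unsorted cells. In the small intestine it had 0 in each GFP-high library, 0, 0 and 1 in GFP-low and 0, 6 and 0 in GFP-negative cells, against 16 and 13 in unsorted cells. Dhh, the ligand known from Schwann cells and the testis, was at 0 to 3 in each sorted library and at 2 to 24 in unsorted ones. Shh was not analysed here.

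The authors' own test gave fewer calls. Of 84 FDR values of the members in the authors' deposited tables, 5 were under 0.05, all in GFP-positive colon cells against unsorted cells. These were Ptch1 (FDR = 0.0092) and Gli1 (FDR = 0.030) in the normal and Ptch1 (FDR = 0.0023), Gli1 (FDR = 0.0070) and Smo (FDR = 0.042) in the DSS colon. Between sorted groups, or DSS and normal cells, the authors' deposited tables had 0 of 42 member values under 0.05. Few genes of any kind were under it there, from 20 to 308 per comparison, in tables of 15019 to 18042 genes. In GFP-positive against unsorted cells 1214 genes were under it in the normal and 1823 in the DSS colon.

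To set levels over all 10 groups, values were also taken per 1000000 of the summed values of the 12669 genes that all tables hold, as a description across separately scaled tables. In the labels, the small intestine libraries are also numbered in a run apart from that of the normal colon. Tissue and any other difference between these sets therefore cannot be told apart. Ptch1 per 1000000 was highest in GFP-positive cells of the normal colon (353 ± 48.6), and its 3 libraries did not overlap those of the next group, small intestine GFP-high cells (150 ± 17.9). Small intestine GFP-high, normal colon GFP-negative (139, with libraries at 125 to 162), small intestine GFP-low (127 ± 39.4) and DSS colon GFP-positive cells (121 ± 8.54, SD) followed, and neighbours in this order overlapped. The lowest was the unsorted DSS colon (27.7 ± 2.06), apart from its neighbour. Hhip was highest in the unsorted normal colon (145 ± 5.34), which overlapped small intestine GFP-high cells (131 ± 61.7), and lowest in GFP-positive DSS colon cells (18.5 ± 5.24), apart from its neighbour. Gli1 was highest in GFP-positive DSS colon cells (151 ± 6.05), overlapping those of the normal colon (131 ± 43.5), and lowest in the unsorted normal colon (24.7 ± 12.8). Smo, Gli2 and Gli3 were each lowest in the 3 unsorted groups, and most neighbours in their orders overlapped.

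Over the 29 libraries, with each gene centred on the mean of its scale, Hhip stood apart from the other members. Pearson's r between Hhip and the other 5 ran from -0.32 (Gli1) to 0.12 (Gli3), while r among those 5 ran from 0.53 to 0.86, the highest between Ptch1 and Smo. Sorted and unsorted libraries were pooled here, so these values carry the difference between them. Of 12550 genes searched, those most like Ptch1 were Lamb1, a laminin chain (r = 0.94), P3h1, a collagen prolyl hydroxylase (r = 0.90), and Ssc5d (r = 0.90). Those most like Smo were Pygo1, a Wnt coactivator (r = 0.94), P3h1 (r = 0.93) and Ssc5d (r = 0.91). Hhip was most like Cdh6, a cadherin (r = 0.75), Frem2, a basement membrane protein (r = 0.74), and Nelfe (r = 0.68). Gli1 was most like Numbl (r = 0.90) and Man2a2 (r = 0.90). Gli2 was most like Snai2, a factor of mesenchymal cells (r = 0.89), Pkd2 (r = 0.88) and Ncam1 (r = 0.88), and Gli3 was most like Gucy1a3 (r = 0.85), Pard3 (r = 0.85) and Golim4 (r = 0.83).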

How the data were processed

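Cells of 10 groups were profiled with the Lexogen QuantSeq 3' kit on an Ion Proton, per the labels' protocols, so that a value counts transcripts without regard to gene length. TopHat2, Bowtie2, DESeq and mm10 were used, per the submitters' processing notes. The sources used here do not give the counting program, its use of strand or the annotation. Per the file headers, the deposited score of a gene in a library is the authors' normalised read count, rounded to whole numbers. The authors also deposited p-values and FDR values of their DESeq test and log2 fold changes of group means. The common scale of the sorted colon libraries was 1.17 to 1.18 times the own scale in DSS and 0.836 to 0.844 times in normal libraries; only these ratios show that both populations' tables share it.

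Since the values are not raw counts, no count test was used. limma 3.58.1 (R 4.3.3) with trend and robust options was run on log2(value + 1) for the compared groups only, without a replicate block. A gene was tested if its mean reached 10 in 1 group. The code was tested on simulated data. Alternatives were pseudocounts of 0.5 and 5, no filter, equal totals, a replicate block, limma without trend and robust options, and each library left out. Depth, estimated from the spacing of values, was not resolved in 4 libraries. None of 406 pairs of libraries were identical. Named were the 6 members, listed pathway genes past the threshold between sorted groups or with DSS, the ligands, Foxf1, and the 3 genes most like each member, apart from items not reported here; Foxf1 was added after its values were seen. The members and lists were chosen with earlier results of these data known.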

Additional observations from a re-analysis of the deposited data

Results flagged for a closer look

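Against GFP-negative cells, Hhip differed in opposite directions in GFP-positive cells of the colon and GFP-high cells of the small intestine. In the normal colon each GFP-positive library was below each GFP-negative one, with a log2 fold change of -1.18. In the small intestine each GFP-high library was above each GFP-negative one, with a log2 fold change of 1.34 that did not pass the threshold (limma adjusted p = 0.23). GFP-low cells did not share this direction: their log2 fold change over GFP-negative cells was -0.33, with overlapping groups (limma adjusted p = 0.69). The difference between the tissues was not tested, because their libraries were normalised separately and the small intestine was sorted into 3 gates. Of 12 contractile genes of smooth muscle, 5 were called higher in GFP-positive cells of the normal colon and 3 in GFP-high cells of the small intestine, none lower. Of 7 pericyte genes tested in each tissue, 1 was called higher in those colon cells and 2 in those small intestine cells, none lower. The part of either list in this result was not tested.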

How the results depend on the processing

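Over the 139 fold changes of members and named pathway genes, none that passed the threshold changed sign under any alternative. With 1 library left out, 703 values kept their side of the threshold, 122 lost it, 6 gained it and 21 changed sign; under other settings these counts were 793, 32, 7 and 2. The sign changes were all in members' values that had not passed. With equal totals, Gli1 had -0.073 in GFP-negative cells with DSS and 0.016 in small intestine GFP-low against GFP-negative cells. With 1 library left out, log2 fold changes ran from -0.030 to 0.23 for Smo (DSS colon, GFP-positive against GFP-negative), from -0.15 to 0.058 for Gli2 (GFP-positive, DSS against normal) and from -0.18 to 0.31 for Gli1 (GFP-negative, DSS against normal). In GFP-high against GFP-negative cells they ran from -0.033 to 0.66 for Smo, from -0.12 to 0.97 for Gli2 and from -0.81 to 0.82 for Gli3. In GFP-low against GFP-negative cells they ran from -0.55 to 0.018 for Hhip, from -0.48 to 0.26 for Gli1 and from -0.0053 to 0.68 for Gli3. In GFP-high against GFP-low cells they ran from -0.41 to 0.28 for Smo, from -0.72 to 0.0074 for Gli1 and from -1.13 to 0.50 for Gli3. They ran from -0.064 to 0.51 for Hhip (GFP-low against unsorted), from -0.0060 to 0.94 for Ptch1 (small intestine GFP-negative against unsorted) and from -0.018 to 0.75 for Gli2 in the difference of DSS responses.

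With 1 library left out, the members called numbered 0 to 2 in GFP-positive against GFP-negative cells of the normal colon, 1 to 2 in GFP-negative cells with DSS, 3 to 5 and 2 to 4 in GFP-positive and GFP-negative against unsorted cells of the normal colon, and 0 to 3 and 0 to 4 in GFP-high and GFP-low against unsorted cells. Of all genes, these fits called 454 to 888, 360 to 1882, 2020 to 4168 and 1554 to 3367 in the colon, in the same order. In the small intestine they called 0 to 2524 and 210 to 2983. Equal totals gave 2 members in GFP-negative cells with DSS. Without trend and robust variance, 0 were called in GFP-high and 1 in GFP-low against unsorted cells, and a pseudocount of 0.5 or no filter also gave 1 for GFP-low cells. The cause was not tested. Relative to the mean of its scale, the level per 1000000 was 0.413 for Ptch1 in unsorted DSS colon, 0.497 for Hhip and 1.04 for Gli2 in GFP-positive normal colon, each over 1 SD from the value on the own scale; the other 57 levels moved by less.

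In no comparison with 3 pairs did every same-numbered pair correlate above 0.1 (r of deviations from group means, -0.30 to 0.36), so the numbers were not taken as pairs. In 2 of them, GFP-negative cells with DSS against normal (r 0.015 to 0.17) and GFP-high against GFP-low (0.078 to 0.23), each library of the first-named group correlated best with the library of its own number in the other group. For GFP-high against GFP-low this is a hint from the data and not from the design. DSS and normal cells came from different mice, so their numbers cannot mark the same animal. Replicate 2 led there by only 0.01499 against 0.01475. The replicate block moved no count of members by over 1.5 times; of the listed pathway genes it called 2 against 4 in GFP-high against GFP-negative cells and 1 against 0 in GFP-high against GFP-low cells. With it, Gli1 passed in the DSS colon (0.66, adjusted p = 0.023) and Gli3 in GFP-low against unsorted cells (2.07, adjusted p = 0.031). Over all genes, the block called 43 against 84 in GFP-low against GFP-negative, 91 against 47 in GFP-high against GFP-low and 845 against 1543 in GFP-negative against unsorted cells of the small intestine, and the setting without trend called 21, 0 and 0 between its sorted groups. A member at 6 to 30 normalised counts rests on few reads, which limits Gli2 and Gli3 in the small intestine.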
